A study of Homo sapiens with 23 samples.

Results

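The libraries described here are the more deeply sequenced set made from A549 cells depleted of THUMPD3 with the short hairpin shD3 #1, 3 libraries, and from their sh1Control counterparts, 3 libraries. These 6 libraries were taken by their labels from the 23 libraries of the series, and all genes of the 2 groups were compared. A549 is an established line of human lung adenocarcinoma cells. The hairpin sits in a vector that is switched on by doxycycline, and the study's methods call the controls untreated, so exposure to the inducer and loss of THUMPD3 cannot be told apart in these libraries. The labels give the genotype of the controls as WT and that of the other group as THUMPD3 knockdown, and no harvest day is given for the deep set on its own. The labels call the libraries of each group biological replicates, and p-values measure the spread between them. How separately the replicates were grown is not described. The sources do not say whether the deep libraries came from the same cultures as the first shD3 #1 and sh1Control libraries, so the sets may not be independent.

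The controls held 51101905 to 59974740 counts per library and the knockdown libraries 27285889 to 35458367, so low levels were measured less precisely in the knockdown group. Rank correlations were 0.996 to 0.997 among controls and 0.994 among knockdown libraries, and the first principal component, with 94.0% of the variance of the 500 most variable genes, separated the groups. Of 42901 genes in the table, 18763 passed the low-count filter. Levels are given in cpm, library-scaled counts after TMM normalization (counts per 1e6 counts), and comparisons between genes in cpm are not corrected for transcript length. A gene is said to have risen or fallen where the adjusted p of edgeR's quasi-likelihood test was under 0.05 and the fold change at least 1.5.

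THUMPD3 is a methyltransferase that works in a complex with TRMT112. It places N2-methylguanosine (m2G) on tRNAs, at the guanosine in position 6 of some of them and at another site in others. Long non-coding RNAs (lncRNAs) are often made at few copies per cell, and many are read from the antisense strand, from shared promoters or from the introns that carry small RNAs. The small RNAs include tRNAs, which bring amino acids to the ribosome, snRNAs, which form the spliceosome, snoRNAs and scaRNAs, which guide modification of rRNA and snRNA, and microRNAs (miRNAs), which silence mRNAs that pair with their seed, bases 2 to 8. Sequencing of long RNA reads the precursors and host transcripts of miRNAs, not the mature miRNAs.

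The sequences below are those of RefSeq on GRCh38, printed in the orientation of the RNA. The tRNA genes are shown because position 6 is a base that THUMPD3 is known to methylate, and the capital letter in each marks it. The 3 with G there that fell most come first, and then 2 that carry another base and also fell. They lie at chr1:16678271-16678341 (minus strand), chr14:20613401-20613472 (minus strand), chr16:3152900-3152972 (plus strand), chr14:20625370-20625451 (plus strand) and chr12:124939966-124940037 (plus strand).
TRG-CCC4-1: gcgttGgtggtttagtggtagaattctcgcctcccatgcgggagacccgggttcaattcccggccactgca
TRP-AGG2-6: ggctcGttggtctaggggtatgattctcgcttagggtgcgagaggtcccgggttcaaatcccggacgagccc
TRR-CCT3-1: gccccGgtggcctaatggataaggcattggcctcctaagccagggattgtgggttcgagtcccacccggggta
TRL-TAG2-1: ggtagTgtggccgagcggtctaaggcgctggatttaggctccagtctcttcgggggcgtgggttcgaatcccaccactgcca
TRA-TGC4-1: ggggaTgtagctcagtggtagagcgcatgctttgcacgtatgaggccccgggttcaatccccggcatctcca

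RNVU1-18, a variant gene of the U1 snRNA at chr1:143729407-143729570 (minus strand), is shown because it had the largest fitted fall among small RNAs with counts in both groups. Its capitals, bases 3 to 11, mark the stretch with which U1 pairs to the 5′ splice site.
RNVU1-18: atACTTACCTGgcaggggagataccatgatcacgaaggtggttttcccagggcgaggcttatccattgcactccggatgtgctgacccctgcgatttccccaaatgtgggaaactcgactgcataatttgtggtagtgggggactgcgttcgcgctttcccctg

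The mature miRNAs below are encoded inside host transcripts that rose or fell, with the seed in capitals. They are shown because miRNAs of the same host transcript often share a seed. The miR-17 and miR-20a sequences, from MIR17HG on chromosome 13, have 1 seed, and the let-7 sequences, from MIRLET7A1HG on chromosome 9, have another. The miR-221 and miR-222 sequences come from MIR222HG on the X chromosome.
hsa-miR-17-5p: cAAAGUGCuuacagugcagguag
hsa-miR-20a-5p: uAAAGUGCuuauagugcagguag
hsa-miR-92a-3p: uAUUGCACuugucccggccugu
hsa-let-7a-5p: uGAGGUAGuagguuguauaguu
hsa-let-7d-5p: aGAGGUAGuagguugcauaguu
hsa-miR-210-3p: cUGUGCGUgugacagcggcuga
hsa-miR-29b-3p: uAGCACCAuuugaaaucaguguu
hsa-miR-29c-3p: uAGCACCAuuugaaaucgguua
hsa-miR-221-3p: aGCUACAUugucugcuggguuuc
hsa-miR-222-3p: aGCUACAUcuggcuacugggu
hsa-miR-181a-5p: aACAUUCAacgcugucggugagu
hsa-miR-137-3p: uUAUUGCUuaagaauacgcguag

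THUMPD3, the targeted gene, was at 54.0, 53 and 55.9 cpm in the controls and at 24.9, 27.5 and 28.3 cpm in the knockdown libraries. The groups did not overlap, and the knockdown mean was 49.6% of the control mean. The log2 fold change was -1.01 ± 0.06 (SE, n = 3 per group; adjusted p = 1.6e-09, edgeR), and p was 0.1 in a two-sided exact permutation test, which cannot go lower with 3 libraries against 3. THUMPD3-AS1, whose gene at chr3:9385264-9397494 overlaps that of THUMPD3, was at 25.2 to 25.6 cpm in the controls and at 22.3, 18.7 and 15.2 cpm in the knockdown libraries, and its log2 difference of -0.45 ± 0.10 did not reach the fold threshold. The column of stranded counts that was deposited is not stated, so reads of overlapping and antisense genes cannot be told apart.

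THUMPD3 was the only called gene of the 9 in the list of its family, TRMT112 and the partners of TRMT112. The methyltransferase THUMPD2 was at 12.3 to 13.8 cpm in controls and 13.5 to 16.4 cpm in knockdown libraries, and TRMT11, the catalytic subunit that modifies another tRNA position, differed by -0.02 ± 0.06 on the log2 scale. TRMT112, the activating subunit shared by these enzymes, was at 34.1 to 36.4 cpm in controls and 26.5 to 32.4 cpm in knockdown libraries, a log2 difference of -0.29 ± 0.07. In the first shD3 #1 libraries the same gene differed by 0.38 ± 0.09. The difference between the effects, -0.68 ± 0.12, passed the test of the interaction (adjusted p = 0.00043, edgeR) at 1.5-fold or more. Of 15827 genes, 8.97% did so in either direction. TRMT112 has a transcript of 812 nt, and its deep change was 0.01 after the adjustment for transcript length described below. Among mRNAs of 800 to 1000 nt the median difference between the effects was -0.21.

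Over all genes tested, 2813 rose, 15% of those tested, and 2648 fell, 14.1%. Groups did not overlap for 67.1% of the genes tested. Protein-coding genes gave 1986 higher and 1753 lower calls of 13819, and non-coding genes 726 higher and 796 lower calls of 4306. The non-coding classes differed among themselves, as the plot of shares by class shows. LINC-named lncRNAs had 94 higher and 58 lower calls of 362, whereas antisense lncRNAs had 74 and 116 of 589 and lncRNAs named as divergent transcripts had 16 and 49 of 242. Small RNAs had 51 higher and 156 lower calls of 594.

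**Figure D1:**
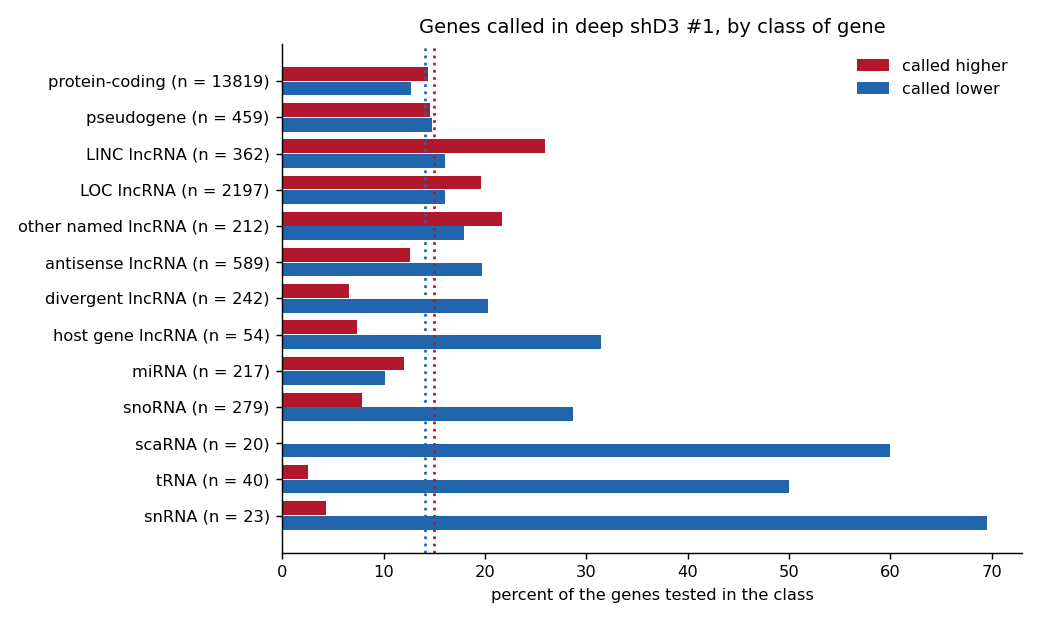
Share of the genes tested in each class that were called higher (red) or lower (blue), in percent, with the number tested in parentheses. Dotted lines give the shares over all genes, 15% higher and 14.1% lower. LINC lncRNAs reach 26.0% higher, and snRNAs reach 69.6% lower.

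**Figure D2:**
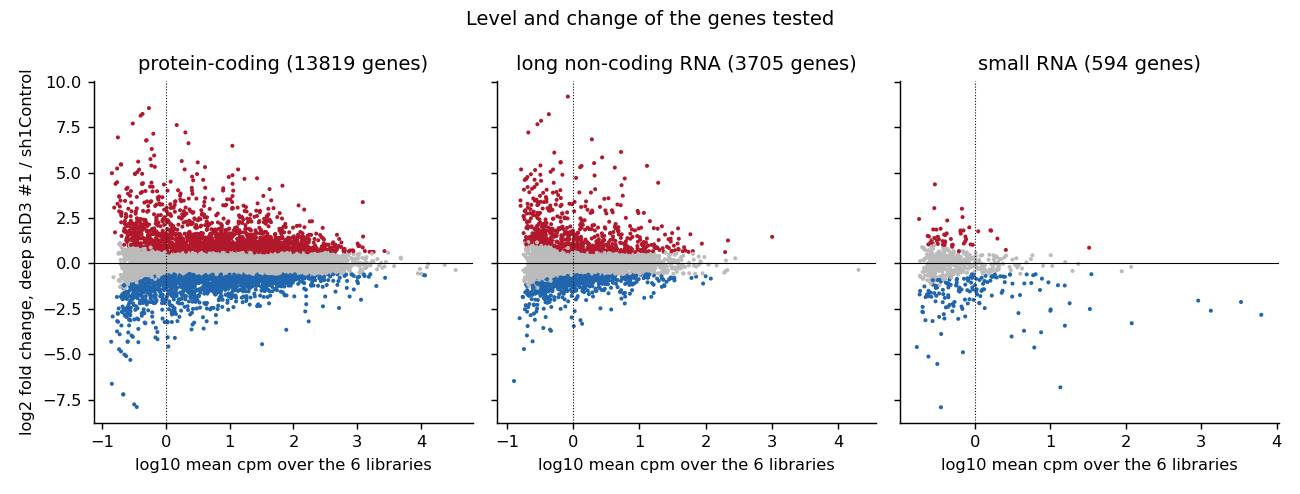
Log2 fold change of deep shD3 #1 over deep sh1Control against the log10 of the mean cpm over the 6 libraries, 1 point per gene tested, for protein-coding genes, lncRNAs and small RNAs. Red and blue points were called higher and lower, grey points were not called, and the dotted line marks 1 cpm. Over 100 cpm, 5 of 6 small RNAs were called lower, with a median of -2.37. At that level the median was 0.02 for protein-coding genes and -0.09 for lncRNAs. Of the 1834 protein-coding genes there, 241 were called higher and 125 lower.

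The largest rises among protein-coding genes with at least 1 cpm were in genes that the controls hardly expressed. ACTBL2, an actin of unusual sequence, was at 0.034, 0 and 0 cpm in the controls and at 3.03, 2.71 and 3.07 cpm in the knockdown libraries. IGF2, the fetal insulin-like growth factor, went from 0.119 to 0.325 cpm in controls to 21.2, 22.3 and 21.9 cpm (log2 fold change 6.47 ± 0.15, adjusted p = 2.3e-13). ERBB4, a receptor tyrosine kinase of the EGFR family, went from 0.034 to 0.0595 cpm to 4.02 to 4.90 cpm (6.61 ± 0.28), and MYO3B, an unconventional myosin, rose by 7.21 ± 0.37. The genes of this and the next paragraph were chosen among those whose groups do not overlap. COL3A1, a fibrillar collagen, rose by 5.63 ± 0.34, UBE2QL1, a ubiquitin-conjugating enzyme, by 5.56 ± 0.22, NYAP2, an adaptor of phosphoinositide 3-kinase, by 5.30 ± 0.19 and SLC14A1, a urea transporter, by 5.17 ± 0.25.

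Among the largest falls of protein-coding genes was C3, the central protein of complement, which was at 142, 132 and 155 cpm in the controls and at 11.5, 9.81 and 12.5 cpm in the knockdown libraries, so that the groups were 12.6-fold apart (log2 fold change -3.66 ± 0.08, adjusted p = 1.3e-13). TNFSF14, a cytokine of the TNF family whose gene lies beside C3 on chromosome 19, fell from 1.94 to 2.30 cpm to 0, 0.11 and 0.138 cpm (-4.58 ± 0.39). GGT5, which cleaves glutathione conjugates, fell by 3.59 ± 0.17 on the log2 scale, TRIM67, a ubiquitin ligase, by 3.64 ± 0.19, RIMS4, a synaptic scaffold protein, by 4.07 ± 0.38 and GXYLT2, a xylosyltransferase that acts on NOTCH proteins, by 3.37 ± 0.21. POTEE, which belongs to a family of near-identical copies, had a fitted change of -4.11 ± 0.33 that is uncertain for this reason. ATP8, a very short mitochondrially encoded mRNA, is described with the short transcripts.

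Among lncRNAs with at least 1 cpm the largest rise was that of LINC00431 (chr13:110966027-110990602), from 0.017, 0.0198 and 0.0541 cpm in the controls to 4.60, 4.39 and 2.44 cpm. Its log2 fold change was 6.83 ± 0.43 (adjusted p = 4.2e-09). LOC124903213, which lies inside the same stretch of chromosome 13, rose by 5.83 ± 0.32, and reads of these 2 overlapping genes may not be independent. LOC107985362 (chr1:233696732-233707516) was the most abundant of the group in the knockdown, at 26.9, 25.0 and 24.4 cpm against 0.493, 0.496 and 0.848 cpm in controls. LOC124900602 rose from 0.139 to 0.153 cpm to 10.1 to 10.7 cpm, and SSTR5-AS1, antisense to a somatostatin receptor gene, rose from 0.139 to 0.289 cpm to 7.90 to 9.06 cpm. These lncRNAs were chosen among those whose groups do not overlap.

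The largest falls were smaller in size. NRAD1, a nuclear RNA first described in breast cancer stem cells, was at 1.78, 2.02 and 1.86 cpm in controls and 0.13, 0.11 and 0.249 cpm in knockdown libraries (log2 fold change -3.45 ± 0.30). DIO3OS, which is read opposite the thyroid hormone deiodinase gene DIO3, fell by 3.13 ± 0.30, and LOC105376026 by 3.33 ± 0.37. TMEM254-AS1 fell from 2.24 to 2.75 cpm to 0.526 to 0.695 cpm. BCYRN1, a short cytoplasmic RNA, had 1.83 to 1.86 cpm in every control but 0, 0.22 and 0.609 cpm in the knockdown libraries, so its fitted fall of 2.63 ± 0.44 comes with a wide spread in 1 group. SNHG19, the host of a snoRNA, fell by 2.21 ± 0.15.

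**Figure D3:**
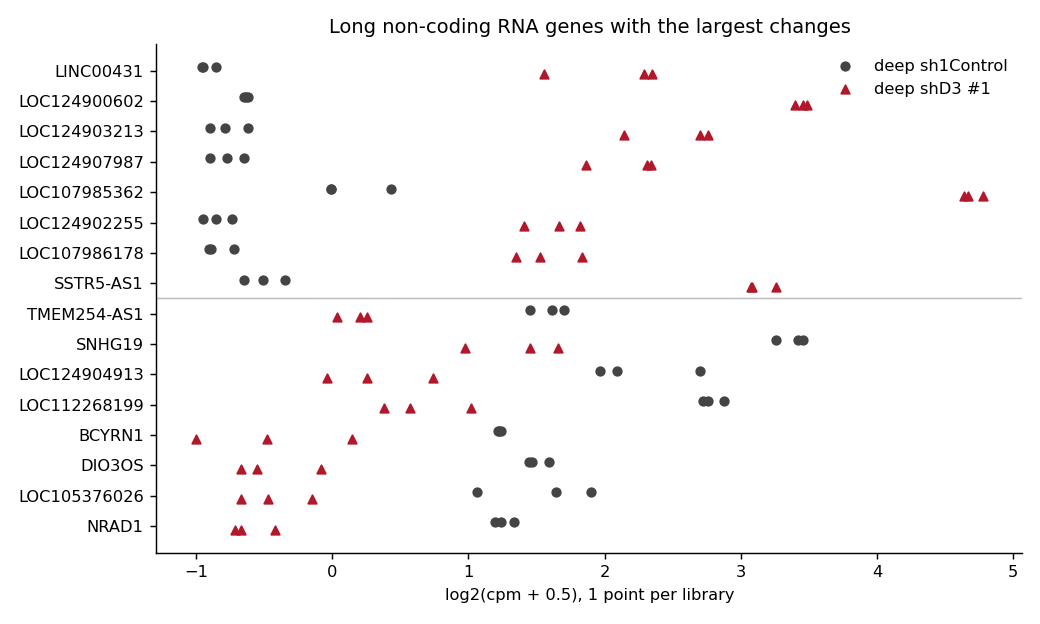
Levels of the 8 lncRNA genes that rose most (upper rows) and the 8 that fell most (lower rows) among those with at least 1 cpm, as log2(cpm + 0.5), 1 point per library, with circles for deep sh1Control and triangles for deep shD3 #1. The genes were chosen among those whose groups do not overlap. The 3 triangles of BCYRN1 are the most spread, from 0 to 0.609 cpm.

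Of the lncRNAs known by name from other work, 12 of 46 tested rose and 6 fell (26.1% and 13.0%). The shares were 15% and 14.1% over all genes and 18.2% and 17.2% over all lncRNAs, so the share that fell was near that of all genes. NEAT1, the scaffold of nuclear paraspeckles, was at 554, 544 and 510 cpm in the controls and 1722, 1311 and 1383 cpm in the knockdown libraries (log2 fold change 1.46 ± 0.08). MEG3, an imprinted RNA that hosts miRNAs, rose from 15.1 to 17.8 cpm to 41.3 to 45.5 cpm, and MEG8, from the same imprinted cluster, rose by 1.5 ± 0.11. EGOT rose by 3.14 ± 0.25 and UCA1, which is raised in many carcinomas, by 4.11 ± 0.62, from at most 0.051 cpm to 0.293 to 0.554 cpm. OIP5-AS1, which sequesters miRNAs and RNA-binding proteins, fell from 119 to 138 cpm to 52.8 to 61.4 cpm, and KCNQ1OT1, the antisense RNA of an imprinted domain, fell by 0.71 ± 0.07. MALAT1, the most abundant non-coding RNA of the table, was at 22235 to 23322 cpm in controls and 16817 to 18947 cpm in knockdown libraries, a log2 difference of -0.36 ± 0.06 that did not reach the fold threshold. Of the lncRNAs listed as responsive to p53, 4 of 6 tested rose (66.7%), namely PINCR (3.65 ± 0.59), NEAT1, PURPL (0.79 ± 0.06) and TP53TG1 (0.72 ± 0.12).

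The nearest protein-coding gene was looked up for each lncRNA. Among 673 lncRNAs that rose and had a tested neighbour, the nearest tested protein-coding gene had risen in 38.5% and fallen in 6.24%. For the 638 that fell, the neighbour had risen in 8.62% and fallen in 21.6%, and for the 2393 not called the shares were 13.0% and 9.15%. Where the lncRNA gene overlapped a protein-coding gene body, the neighbour had risen for 46.5% of those that rose and fallen for 25.1% of those that fell, and where it did not, the shares were 34.5% and 18.7%. The difference between these settings was not tested. These shares are descriptions, since neighbours share reads where they overlap and several lncRNAs can share 1 neighbour.

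Single pairs of named genes went both ways. LOC124902255 and DELEC1 lie over and beside TNC, the matrix glycoprotein tenascin-C, which itself rose by 2.7 on the log2 scale. SSTR5-AS1 overlaps SSTR5 (2.05), and LOC124907987 lies 61370 bp from SCG2, a granin of secretory vesicles (2.29). In the other direction, LOC124904913 lies 3191 bp from SLPI, a secreted protease inhibitor (-1.68), and LINC00853 lies 3243 bp from PDZK1IP1 (-2.40). Other lncRNAs went against their neighbour. BCYRN1 fell while EPCAM, the epithelial adhesion molecule at 33797 bp, rose by 1.89 on the log2 scale, NRAD1 fell beside LACC1 (1.07), SNHG28 beside CFAP45 (1.02) and LOC112268199 over SEPTIN9 (0.68), and UCA1 rose beside CYP4F11 (-0.92). DIRC3-AS1 rose while its nearest tested protein-coding gene, TNS1 at 455587 bp, fell by 1.09 on the log2 scale, and ANKRD10, the neighbour of LINC00431, differed by 0.30 and was not called.

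Genes with a mean under 1 cpm made up 3942 of those tested, with 742 higher and 768 lower calls (18.8% and 19.5%). The shares over all genes were 15% and 14.1%. Of the genes under 1 cpm, 2308 were non-coding, with 383 higher and 400 lower calls (16.6% and 17.3%). Another 1423 were protein-coding, with 325 higher and 317 lower calls (22.8% and 22.3%). The non-coding shares were closer to those of all genes than the protein-coding shares. The median SE of a log2 fold change was 0.370 in this range, against 0.150 at 1 to 10 cpm, 0.060 at 10 to 100 cpm and 0.045 above. The counts of calls depend on the test, since a test against the 1.5-fold threshold itself gave 454 higher and 348 lower calls, and a demand for at least 10 counts in every library gave 310 and 187. That last filter removes genes absent from 1 group.

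The clearest low-abundance changes were genes without a single count in 1 group. Higher calls included 11 genes with no count in any of the controls, and lower calls included 7 with no count in any knockdown library. LINC01832 (chr2:138101884-138105905) had 40, 42 and 78 counts in the knockdown libraries and was at least 93.3-fold higher there, setting the controls at 3 counts over the group. LOC124906224 was at least 46.7-fold higher with 30, 25 and 25 counts, DIRC3-AS1 at least 36.7-fold with 23, 13 and 27, DELEC1 at least 32.1-fold with 22, 12 and 21, and JAKMIP2-AS1 at least 23.3-fold with 18, 8 and 14. DELEC1 had 10, 7 and 8 counts in the first sh1Control libraries, so its lack of counts holds for the deep controls only. Among protein-coding genes, TTR, the carrier of thyroid hormone and retinol, had 27, 19 and 36 counts against none and was at least 47.8-fold higher. RGS4, a brake on G-protein signalling, was at least 44.9-fold higher, and KRTAP4-4, a hair keratin-associated protein, at least 32.7-fold. PSG2, a pregnancy-specific glycoprotein, had 1 control library with a count, at 0.017 cpm, and 0.997 to 1.76 cpm in the knockdown libraries, but it belongs to a family of near-identical copies. A further protein-coding gene of this group has a near-identical copy on another chromosome and is not given.

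The genes lost from the knockdown libraries were of another kind. Of the 7, 4 were replication-dependent histone genes, whose mRNAs are short and lack a poly(A) tail. H2BC12L had 47, 44 and 23 counts in the controls and was at least 21.7-fold lower, H3C14 at least 19.4-fold, H4C14 at least 13.5-fold and H2AC18 at least 13.3-fold. Histone genes have near-identical copies, so single members are uncertain. USP6, a ubiquitin protease, was at least 8.96-fold lower, LINC00853 at least 8-fold lower with 14, 15 and 13 counts in the controls, and TRNM, the mitochondrial tRNA for methionine, at least 21.7-fold lower with 37, 60 and 17.

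The members of the lists that were under 1 cpm, 89 in number, had 22 higher and 27 lower calls, beside 18.8% and 19.5% of all genes under 1 cpm. MAGEC1, a cancer-testis antigen gene on the X chromosome, had a count in 1 control library only, at 0.018 cpm, and was at 1.14, 0.988 and 0.831 cpm in the knockdown libraries. Of the 53 cancer-testis genes listed only 3 passed the filter, and the other two, MAGEA3 and MAGEA6, differed by -0.07 ± 0.15 and -0.21 ± 0.07. Among voltage-gated channel genes, 9 of 33 rose and 10 fell (27.3% and 30.3%), beside 15% and 14.1% of all genes. The calcium channel gene CACNA1B went from 0.337 to 0.391 cpm to 0 to 0.0652 cpm and the sodium channel gene SCN2A from 0.317 to 0.614 cpm to 0.0277 to 0.0978 cpm, while SCN3A rose from 0.848 to 1.00 cpm to 3.44 to 4.43 cpm. CACNA1B and SCN2A had a mean under 1 cpm and SCN3A one above it.

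To be looked at in the first libraries, a low-abundance gene had to match a gene of their table and pass the filter there. Of genes under 1 cpm that were tested in the deep set, 21.8% did both in the first shD3 #1 and sh1Control libraries, against 96.7% at 10 to 100 cpm. Of the 742 that rose, 470 were matched, 171 could be tested there and 123 of these were called higher too (71.9%). Of the 768 that fell, 517 were matched, 203 could be tested and 99 were called lower too (48.8%). The parts of matching and of depth in this loss were not separated. Among all genes under 1 cpm tested in both sets, 20.8% were called higher and 18.1% lower in the first libraries. Over all genes of the first libraries the shares were 14.5% and 14.6%. The tables were counted with different annotations and the libraries may share cultures, so these shares describe repeat calls and not independent support.

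At a common depth of 27285889 counts per library, the expected number of genes with at least 1 count was 24039 ± 111 in controls and 24582 ± 48 in knockdown libraries (SD, n = 3, exact permutation test p = 0.1). With at least 10 counts the numbers were 17206 ± 52 and 17394 ± 51 (exact permutation test p = 0.1). In both cases each knockdown library lay above each control. Genes under 1 cpm took 0.243% of the counts in controls and 0.258% in knockdown libraries, with no overlap between the groups, a difference larger than the spread between libraries.

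Host transcripts of miRNAs had 4 higher and 7 lower calls of 25 tested (16% and 28%), beside 15% and 14.1% of all genes, so the share of higher calls was near that of all genes. MIR17HG, the host of the oncogenic miR-17 to miR-92a cluster shown above, was at 12.6, 10.4 and 10.1 cpm in controls and 5.54, 7.61 and 5.82 cpm in knockdown libraries (log2 fold change -0.82 ± 0.12). MIRLET7A1HG, which carries let-7a, let-7f and let-7d with their shared seed, fell by 1.14 ± 0.15 and MIR210HG, the host of the hypoxia-linked miR-210, by 1.86 ± 0.39. MIR29B2CHG, with 2 miRNAs of 1 seed, fell by 0.64 ± 0.09. MIR222HG, by contrast, rose from 135 to 176 cpm to 235 to 240 cpm, carrying miR-221 and miR-222 with the seed they share, and MIR137HG rose by 0.98 ± 0.18 and MIR181A1HG by 0.73 ± 0.18. The calls of MIR29B2CHG and MIR222HG were close to the fold threshold, and each was lost without 1 control library, at -0.58 without replicate 2 and 0.53 without replicate 3. MIR34AHG, the host of the p53-responsive miR-34a, differed by -0.35 ± 0.06 and was not called.

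Precursor genes of miRNAs, measured on their own, had 26 higher and 22 lower calls of 217 (12% and 10.1%), both below the shares of all genes, 15% and 14.1%. MIR3120 was at 0 to 0.0397 cpm in controls and 0.305 to 0.805 cpm in knockdown libraries, MIR3190 at 0.119 to 0.170 and 1.01 to 1.54 cpm, MIR3972 at 0.179 to 0.238 and 0.915 to 1.30 cpm, and MIR1252 at 0.018 to 0.085 and 0.329 to 0.782 cpm. Reads over such short genes can come from the longer transcript around them. The remaining gene among the 5 small RNAs that rose most was SNORA70E (2.44 ± 0.52).

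Of the non-coding hosts of snoRNAs, 13 of 28 were called, each of them lower, beside 14.1% of all genes, with a median log2 fold change of -0.54 against -0.02 over all genes tested. SNHG6 was at 26.2, 25.0 and 23.5 cpm in controls and 6.19, 7.25 and 10.4 cpm in knockdown libraries. SNHG5 fell by 1.30 ± 0.13, GAS5, which carries many box C/D snoRNAs in its introns, by 1.05 ± 0.11 and ZFAS1 by 0.78 ± 0.06. Other hosts were not called. SNHG14, the long host of the imprinted chromosome 15 snoRNA clusters, was at 66.6 to 70.6 cpm in controls and 86.7 to 90.9 cpm in knockdown libraries, and SNHG16 differed by -0.08 ± 0.05. In the first libraries the median of these hosts was 0.03, and 11 of the 27 matched fell further in the deep set by the test of the interaction, whose background was 4.56% lower. GAS5, for example, differed by 0.06 ± 0.06 in the first libraries, and the difference between the effects was -1.12 ± 0.12 (adjusted p = 3.6e-06, edgeR). It was at 17.2 to 18.3 cpm in the deep controls but at 128 to 138 cpm in the first controls. Whether the tables count this gene alike was not tested.

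Small RNAs took 2.13% ± 0.11 of the counts in controls and 0.445% ± 0.30 in knockdown libraries (SD, n = 3). The knockdown libraries were at 0.237%, 0.310% and 0.787%, all below the lowest control at 2.05%, with replicate 3 the highest of them (exact permutation test p = 0.1). RMRP, the RNA of RNase MRP, was at 10687, 11544 and 10455 cpm in controls and 518.7, 823.9 and 3241 cpm in knockdown libraries. RN7SK, which holds the transcription elongation factor P-TEFb in check, was at 5195 to 5759 cpm and at 614.8, 896.0 and 2222 cpm, and RN7SL1, the RNA of the signal recognition particle, at 2283 to 2304 cpm and at 152.2, 200.5 and 773.1 cpm. In each of these the groups did not overlap and replicate 3 of the knockdown lay nearest the controls. The same order, with replicate 3 the highest knockdown library, was found in 102 of the 156 small RNAs that fell and in 204 of all 594 tested.

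The list of abundant small and structured RNAs had 17 of 20 tested members called (85%), each of them lower, beside 14.1% of all genes. The median log2 fold change of the list was -1.93. RNVU1-18, printed above, was at 30.6, 31.3 and 18.6 cpm in controls and at 0.228, 0.256 and 0.222 cpm in knockdown libraries, a 113-fold lower mean (-6.83 ± 0.29, adjusted p = 7.9e-11). RNU4-1 and RNU4-2, genes of the spliceosomal U4 snRNA, fell by 4.64 ± 0.29 and 3.8 ± 0.27. In RNVU1-18 and RNU4-1 knockdown replicate 3 was the lowest of its group, unlike in RMRP. U1 and U4 genes, like RN7SL genes, have near-identical copies, so the level of each copy is uncertain. RPPH1, the RNA of RNase P, fell by 2.05 ± 0.27 and TERC, the telomerase RNA, by 0.60 ± 0.09. SCARNA2, at 119 to 129 cpm in controls and 98.7 to 124 cpm in knockdown libraries, is longer than most scaRNAs and was not called.

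Of 20 scaRNAs, 12 fell (60%), among them SCARNA12 (-3.43 ± 0.31), SCARNA10 (-2.52 ± 0.30) and SCARNA7 (-2.20 ± 0.27). Of 279 snoRNAs 80 fell and 22 rose (28.7% and 7.89%), beside 14.1% and 15% of all genes. SNORA64 had 0.614 to 0.635 cpm in each control and counts in only 1 knockdown library, at 0.0277 cpm, SNORD30 fell by 5.13 ± 0.82, and SNORD88B went from 1.17 to 1.48 cpm to 0 to 0.0652 cpm. Of 7 rRNA genes tested, 1 rose and 2 fell, with a median of -0.56. RNA45SN4, a copy of the 45S precursor, was at 4887 to 5374 cpm in controls and 6081 to 8828 cpm in knockdown libraries (0.59 ± 0.10), at the edge of the fold threshold and with near-identical copies, and without 1 of the first 2 knockdown replicates it no longer passed (0.49 and 0.52). Depletion of rRNA during library preparation acts on this class.

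Nuclear tRNA genes had 1 higher and 13 lower calls of 29, beside 15% and 14.1% of all genes. Where position 6 could be read, 14 carried G there, of which 8 fell, with a median log2 fold change of -1.51 and a range of -2.66 to 0.39. Of the 11 with another base 3 fell, with a median of -0.93. TRG-CCC4-1, with G, had 23, 15 and 20 counts in controls and 2, 1 and 2 in knockdown libraries (-2.66 ± 0.51), TRP-AGG2-6 had 47, 46 and 35 against 1, 1 and 13, and TRR-CCT3-1 had 49, 63 and 32 against 0, 4 and 15. TRL-TAG2-1, with T at that position, had 41, 46 and 28 against 3, 5 and 10 (-1.87 ± 0.41), and TRA-TGC4-1 had 16, 15 and 15 against 2, 3 and 4. The ranges of the groups of tRNAs overlapped, and whether G at position 6 goes with a larger fall was not tested. Libraries of this kind capture mature tRNAs poorly and tRNA genes have near-identical copies, so these counts do not give tRNA levels. TRI-GAT1-1 on the X chromosome was the tRNA gene that rose, from 12 to 18 counts in controls to 19 to 26 counts in the less deep knockdown libraries (log2 fold change 1.34 ± 0.34).

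The fall of short RNAs had a counterpart in mRNA. Of 184 protein-coding genes with a transcript under 600 nt, 5 rose and 105 fell (2.72% and 57.1%), beside 15% and 14.1% of all genes. Their median log2 fold change was -0.78, and the median was -0.28 at 600 to 800 nt and 0.05 at 5000 nt and more. By library, the median deviation of mRNAs under 600 nt from the control mean was -0.98, -0.91 and -0.42, so replicate 3 was again nearest the controls. In the first shD3 #1 libraries the same mRNAs deviated by 0.03, -0.05 and 0.12. The interaction was lower in the deep set for 73 of 174 such mRNAs, against 4.56% of all genes. lncRNAs under 600 nt, by their canonical transcript, had 34 higher and 54 lower calls of 237 and a median of -0.15. Depth also differed between the groups of the deep set, as given above, and its part in these falls was not tested. In bulk libraries such as these, fewer cells of a kind and less RNA per cell cannot be told apart either.

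**Figure D4:**
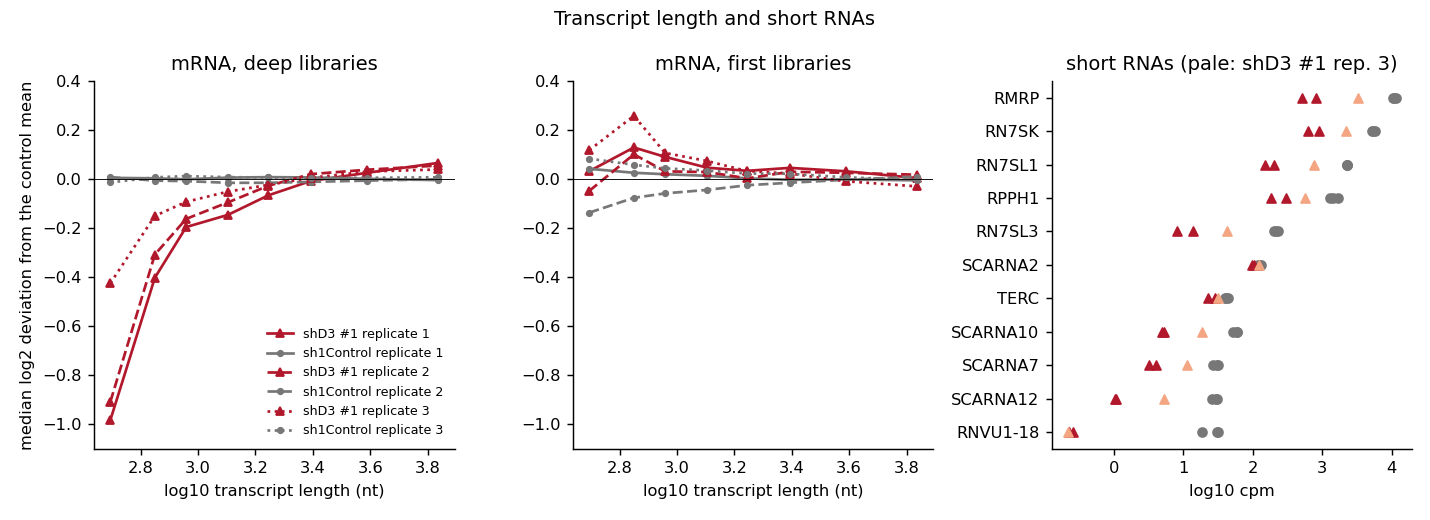
Left and middle, median log2 deviation of protein-coding genes from the control mean of their set against the log10 of the median transcript length of the bin (nt), 1 line per library, with triangles for shD3 #1 and circles for sh1Control. The deep knockdown libraries drop at the short end, to -0.98, -0.91 and -0.42, while the lowest first library there, control replicate 2, is at -0.14. Right, log10 cpm of short RNAs in each deep library, with the pale triangle for knockdown replicate 3 nearest the controls for RMRP, RN7SK and RN7SL1 but not for RNVU1-18.

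RN7SL1 shows how far the sets of libraries differed. It was 2.61 ± 0.42 lower on the log2 scale in the deep knockdown and 0.49 ± 0.15 higher in the first, and the difference of -3.11 ± 0.54 passed the test (adjusted p = 0.00037, edgeR). RNVU1-18 was at 1.09 to 1.43 cpm in the first controls and 1.03 to 1.21 cpm in the first knockdown libraries, so the fall seen in the deep set had no counterpart there (difference -6.57 ± 0.72). RMRP, RN7SK, RPPH1 and SCARNA12 had no counts in the table of the first libraries, so no difference between the sets could be estimated for them. Of the small RNAs that fell in the deep set, 42 passed the filter in the first libraries, where 1 was called lower and 10 higher.

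Mitochondrially encoded mRNAs took 15.1% ± 0.39 of the counts in controls and 12.1% ± 0.34 in knockdown libraries (SD, n = 3, exact permutation test p = 0.1). Of the 13, 6 fell (46.2%), beside 14.1% of all genes, and the shortest moved most. ATP8, a subunit of ATP synthase, was at 66.6, 78.6 and 39.5 cpm in controls and 2.44, 3.18 and 2.83 cpm in knockdown libraries (-4.45 ± 0.23), and ND4L and ND3, short subunits of complex I, fell by 2.46 ± 0.38 and 2.37 ± 0.32. The long ND4 and ND5 mRNAs differed by -0.09 ± 0.06 and -0.04 ± 0.07. With protein-coding genes adjusted for the trend with length, an alternative chosen after the data had been seen, 3 of the 13 stayed lower. In the first libraries ATP8 differed by 0.65 ± 0.24 in the other direction.

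Cytosolic ribosomal protein genes, which are short and abundant, had 26 of 82 called (31.7%), each of them lower, beside 14.1% of all genes. Their median was -0.36. RPS29 was at 266, 273 and 249 cpm in controls and 26.3, 34.5 and 103 cpm in knockdown libraries (-2.25 ± 0.33), and RPLP1 fell by 1.81 ± 0.12. RPSA, which was not called, was at 444 to 448 and 488 to 545 cpm. After adjustment for length 16 remained lower and the median was -0.09. In the first libraries the median was 0.46, and 53 of 82 were lower in the deep effect than in the first.

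Replication-dependent histone genes had the largest share of lower calls among the protein-coding lists, 46 of 53 (86.8%), beside 14.1% of all genes. Their median was -1.21. Their transcripts are short too, and after adjustment for length 30 were lower and 2 higher, with a median of -0.66. In the first libraries their median was -1.25 over the 50 matched. H3C6, at 3.97 to 4.30 cpm in controls and 4.10 to 5.95 cpm in knockdown libraries, was among the few that were not called.

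Genes of M phase and the spindle checkpoint had 34 of 98 called (34.7%), each of them lower, with a median of -0.50, beside 14.1% of all genes called lower. MAD2L1, a checkpoint protein that delays anaphase, was at 23.6, 25.2 and 24.2 cpm in controls and 5.70, 6.62 and 7.31 cpm in knockdown libraries (-1.89 ± 0.08), DEPDC1 fell by 1.39 ± 0.05 and the chromokinesin KIF4A by 1.09 ± 0.06. The kinesin KIF18A, which was not called, was at 45.8 to 50.3 cpm and 55.5 to 57.7 cpm. The fall was larger in the first libraries, with a median of -1.01, and 40 of the 98 effects were higher, that is closer to 0, in the deep set, against 4.42% of all genes. For KIF4A that difference was 0.82 ± 0.08. Of DNA replication genes 13 of 58 were called, each of them lower, among them the checkpoint mediator CLSPN (-0.99 ± 0.05) and RPA3, a subunit of the single-strand binding complex (-1.08 ± 0.10).

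Target genes of p53 had 22 higher and 1 lower call of 49 (44.9% and 2.04%), beside 15% and 14.1% of all genes, with a median of 0.47. PTCHD4 rose from 0.893 to 0.952 cpm to 3.66 to 5.31 cpm (2.19 ± 0.18), the growth arrest gene GADD45A by 1.30 ± 0.07 and KITLG, the ligand of the KIT receptor, by 1.39 ± 0.05. CCNG1, a cyclin that feeds back on p53, was the member that fell (-0.85 ± 0.06). For 13 of the 49 the effect was lower in the deep set than in the first, where the median was 0.82. BAX, which permeabilises mitochondria in apoptosis, differed by -0.51 ± 0.06 here and by 0.50 ± 0.07 in the first libraries, and GDF15, a stress cytokine, by -0.09 ± 0.05 and 0.77 ± 0.08.

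Matrix and adhesion genes had more higher than lower calls, beside 15% and 14.1% of all genes. Integrins had 9 higher and 2 lower calls of 16, with a median of 0.69: ITGA11, a collagen receptor subunit, rose from 7.18 to 7.51 cpm to 49.8 to 53.5 cpm (2.81 ± 0.06), ITGB8 by 2.39 ± 0.05 and ITGA2 by 1.95 ± 0.04, while ITGB3 fell by 1.73 ± 0.12. Matrix proteins had 27 higher and 13 lower calls of 75. LAMB3, a laminin chain of the basement membrane, was at 23.1, 23.1 and 25.0 cpm in controls and 227, 228 and 195 cpm in knockdown libraries (3.19 ± 0.06), and COL17A1, the hemidesmosomal collagen, rose by 4.01 ± 0.18. FBLN5, an elastic fibre protein, fell by 1.81 ± 0.20 and LAMA1 by 1.97 ± 0.50. Proteases and their partners had 10 higher and 7 lower calls of 36, with MMP1 at 0.017 to 0.0361 cpm in controls and 0.293 to 0.609 cpm in knockdown libraries.

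Genes of the epithelial and mesenchymal states had 22 higher and 3 lower calls of 42, and for this and the next lists the shares of all genes were 15% higher and 14.1% lower. Members of both states were among the higher calls. CDH1, the epithelial cadherin, fell from 200 to 225 cpm to 79.0 to 82.5 cpm and SNAI2, a repressor of epithelial genes, rose by 1.96 ± 0.18, while CLDN4, a tight junction protein, rose by 2.69 ± 0.16 and the keratins KRT16 and KRT6A by 2.39 ± 0.45 and 2.23 ± 0.45. Cytokines and chemokines had 9 higher and 7 lower calls of 28. TNFSF15 rose from 5.52 to 8.28 cpm to 120 to 132 cpm (4.27 ± 0.11), and IL32 by 2.08 ± 0.18, whereas the neutrophil chemokines CXCL1 and CXCL2 fell by 1.76 ± 0.08 and 0.97 ± 0.08. Interferon-stimulated genes had 11 higher and 3 lower calls of 44, with MX1 higher (1.49 ± 0.14) and GBP1 lower (-2.21 ± 0.21), so the share of lower calls was below that of all genes. ATF4 targets had 3 higher and 10 lower calls of 38, with NUPR1 at -2.74 ± 0.27 and ATF3 at 1.73 ± 0.06, and 2 of 24 cholesterol synthesis genes fell, among them FDPS (-0.99 ± 0.06). Non-clustered protocadherins had 3 higher calls of 5, led by PCDH10 (3.04 ± 0.25), and HOX genes 1 higher and 4 lower of 30, both below the shares of all genes.

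Splicing regulators, proteins that steer exon choice, had 5 higher and 4 lower calls of 61 (8.20% and 6.56%), both below the 15% and 14.1% of all genes, with MBNL1 (0.83 ± 0.04), MBNL2 (0.92 ± 0.06) and NOVA1 (0.95 ± 0.06) higher and SRSF1 (-0.61 ± 0.05) and HNRNPD (-0.78 ± 0.05) lower. The call of CELF2, at 0.0794 to 0.253 cpm in controls and 0.222 to 0.456 cpm in knockdown libraries, was lost in most alternatives. Genes that the study singled out for a change in exon use had 7 higher calls of 19, with IKBKG (1.66 ± 0.06), ITGA6 (1.30 ± 0.05) and the matrix protein FN1 (0.95 ± 0.07) among them. Of 12 non-coding genes with a splicing event in the study, 5 rose and 3 fell, led by the pseudogene PGM5P2 (2.41 ± 0.14) and by SNHG19. Both lists were chosen by the study on shD3 #1 samples and their controls, which may be these libraries. Their counts therefore cannot be taken as independent evidence of a direction.

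**Figure D5:**
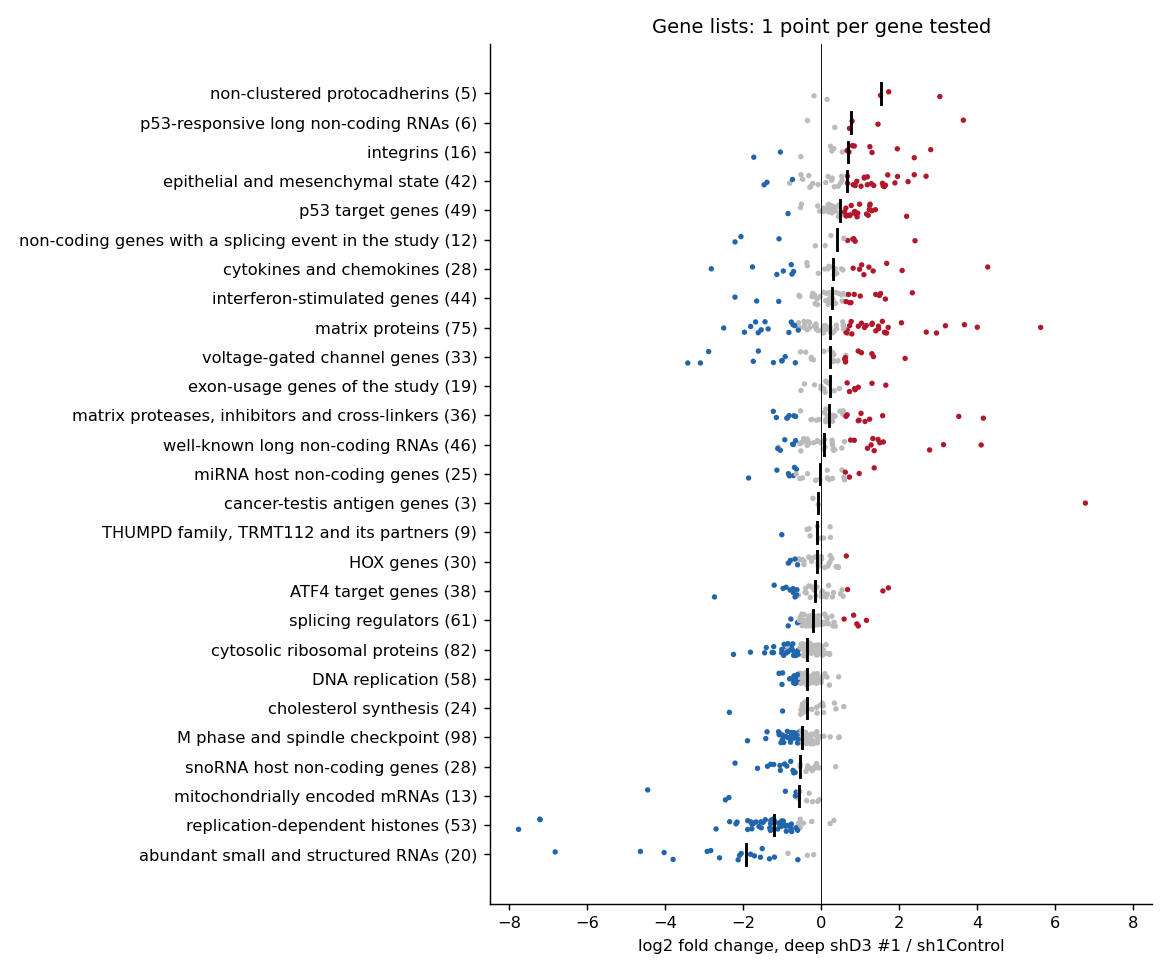
Log2 fold change of deep shD3 #1 over deep sh1Control for the tested members of each list, 1 point per gene, with the number tested in parentheses, the median as a black bar, and red and blue points for genes called higher and lower. Lists are ordered by their median, from 1.52 for non-clustered protocadherins to -1.93 for abundant small and structured RNAs.

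The labelled cell type was checked against markers of lung carcinoma cells and of other cells. The 7 epithelial markers summed to 4766 to 5339 cpm in controls and 6963 to 7051 cpm in knockdown libraries, and 4 of them rose and CDH1 fell. Of 6 leukocyte markers 3 were tested and 2 rose, CD68 and LYZ, with sums of 52.2 to 54.7 and 95 to 103 cpm. CD14, the remaining leukocyte marker tested, differed by -0.53 ± 0.12 and was not called. Most of the leukocyte sum was CD68, a lysosomal protein also made outside leukocytes. Endothelial markers summed to 0.668 to 0.799 cpm and 0.914 to 1.5 cpm, and the rise of CDH5 did not hold without knockdown replicate 2, while KDR, the other marker tested, differed by -1.14 ± 0.59 and was not called. Of 6 fibroblast markers 4 were tested and all 4 rose, with COL1A1 from 7.67 to 8.28 cpm to 25.4 to 27.8 cpm and sums of 8.16 to 8.90 and 31.5 to 33.3 cpm, while 1 marker had no counts in any library. The matrix genes above include COL1A1, COL3A1 and LUM, and the part of other cells in their rise was not tested.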

How the data were processed

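RNA was sequenced from 3 deep sh1Control and 3 deep shD3 #1 libraries. The authors deposited raw gene counts, which are used here as counts. Per the labels and the study's methods, rRNA was removed, a directional kit was used, reads were trimmed with Trimmomatic 0.40 and aligned with STAR 2.7.10a, and the RefSeq annotation of GRCh38 was used. Which strand column was kept is not given in the sources used here. Totals were 27285889 to 59974740 counts per library.

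Groups were taken from the labels. Low-count genes were removed with edgeR's default filter, TMM factors were computed, and edgeR 4.0.16 in R 4.3.3 fitted the quasi-likelihood test with Benjamini-Hochberg adjustment over all 18763 genes. Genes were called where the adjusted p was below 0.05 and the log2 change, up or down, reached 0.585. The difference from the first libraries was the interaction in 1 fit over 12 libraries and 15827 genes, some without counts in the first libraries, whose 2 count tables were made with different annotations. Single values were compared with exact permutation tests. A group without counts was set at 3 counts over the group for a bound. Sequences and gene positions came from RefSeq tables of GRCh38, which matched 98.6% of the genes. Transcript lengths of mRNAs and lncRNAs were those of the Ensembl canonical transcript in GENCODE. The scripts were tested on simulated counts.

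The members and lists were chosen with earlier results of these data known. Genes were named by a rule: the family list, the 8 highest and 8 lowest called protein-coding genes and lncRNAs of at least 1 cpm without overlap between groups, the 5 highest and 5 lowest non-coding and protein-coding genes under 1 cpm and small RNAs at any level, the 5 most abundant non-coding genes, the extreme members of each list with up to 4 in all, and called miRNA and snoRNA hosts. A few list members outside this rule, not called, were added as examples after their values were seen, and some items are not reported here. Alternatives were DESeq2 1.42.0, its size factors, library totals, other filters, a test against the fold threshold, a replicate block, and leaving out each library. An offset for the trend of protein-coding genes with transcript length was added after seeing the data. Replicate numbers did not pair the samples: the correlations of same-numbered deviations were -0.078, 0.019 and -0.011.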

Additional observations from a re-analysis of the deposited data

Results flagged for a closer look

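Each gene below was picked out because its log2 fold change differed between the deep and the first shD3 #1 libraries by the test of the interaction (adjusted p under 0.05, edgeR). The difference also had to be at least 1.5-fold, so genes with smaller differences that passed on adjusted p alone are not listed. Values are the deep minus the first log2 fold change. The tables were counted with different annotations, and groups of 3 are too small for a search for single outlying libraries.

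Among short and structured RNAs and short mRNAs the differences were -6.57 for RNVU1-18, -2.84 for BCYRN1, -5.11 for ATP8, -2.83 for RPS29 and -6.43 for the histone gene H4C14. H4C14 had no count in any deep knockdown library, so the size of its difference is uncertain. Hosts of snoRNAs gave -2.0 for SNHG19, -1.45 for SNHG21, -1.29 for SNHG6, -1.28 for SNHG5, -1.12 for GAS5, -0.79 for SNHG26, -0.71 for SNHG3 and -0.61 for SNHG7. MEG3, which rose in both sets, gave -0.84, C3 and ITGB3, which fell, gave -0.79 and -0.98, and TRMT112 gave -0.68.

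Differences above 0 were found for low-abundance genes, with 4.33 for LINC01832, 3.99 for TTR, 3.98 for DIRC3-AS1, 3.42 for DELEC1 and 3.04 for CDH5. LINC01832, TTR, DIRC3-AS1 and DELEC1 had no count in any deep control, so the sizes of their deep changes and of these differences are uncertain. In the first libraries they rose too, by 4.19, 3.57, 3.24 and 3.64 on the log2 scale. Differences above 0 were also found for COL3A1 (2.13), TNFSF15 (1.80), EPCAM (0.87) and SCN3A (0.85). Cell division and replication genes gave 1.52 for KIFC1, 0.73 for GINS3 and 0.61 for CIT. KIFC1 was at 0.278 to 0.510 cpm in the deep controls but at 67.9 to 68.6 cpm in the first controls. Its deep change of 0.46 ± 0.37 was not called. Levels in the controls also differed between the sets for other genes, with GAS5, BCYRN1 and SNHG26 lower in the deep set and ITGB3 higher. Whether the tables count these genes alike, and the cause of the differences listed here, was not tested.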

How the results depend on the processing

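Among the genes named by the rule, no called gene changed direction under the alternatives run, with at most 146 results compared in each. Among genes not called, the length offsets moved TRMT112 from -0.29 to 0.01, TRMT11 from -0.02 to 0.02 and METTL5 from -0.10 to 0.09 on the log2 scale, TRMT11 also changed sign in 3 other settings, and ND5 did so without knockdown replicate 3 (0.03). The length offsets took the median of mRNAs of 600 to 800 nt from -0.28 to 0.10, as they are built to flatten that trend. A test against the 1.5-fold threshold (glmTreat) gave 1464 lower calls in all, 1082 for protein-coding genes, 432 higher and 330 lower for non-coding genes, 405 and 239 for lncRNAs, 27 and 90 for small RNAs, and 454 and 348 for genes under 1 cpm. At least 10 counts in every library gave 470 and 491 for non-coding genes, 442 and 418 for lncRNAs, 28 and 71 for small RNAs, and 310 and 187 for genes under 1 cpm. Fewer genes are tested there. Without a filter beyond 1 count, 1144 genes under 1 cpm and 81 small RNAs were higher. With the limit at 0.5 cpm, 437 were higher and 420 lower. Leaving out each library in turn gave 2764 to 2926 higher and 2426 to 2787 lower calls in all, and -1.05 to -0.96 for THUMPD3. With the replicate block there were 2742 higher and 2555 lower calls, although the numbers share no more than a number. Calls of SNHG28, CELF2, RNA45SN4, CDH5, MIR29B2CHG and MIR222HG were lost in some settings. Depth limits genes under 1 cpm most, with a median SE of 0.370.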
